A study of Mus musculus with 4 samples.

Results

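The Hox genes were read on whole-genome expression arrays of whole mouse brain at embryonic day 14.5, with and without the transcription factors Sox4 and Sox11. All probe sets that the array's annotation gives to a single gene of the Hoxa, Hoxb, Hoxc or Hoxd cluster were taken, dim ones included, which gave 48 probe sets of 33 genes, of 45037 probe sets and 18193 named genes in all. A probe set is a group of short probes that together report 1 transcript. Hox genes with no such probe set are not analysed here. Another 3 probe sets are shared by several Hox genes in the annotation and were left out.

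Hox genes encode homeodomain transcription factors and lie in 4 clusters on separate chromosomes. Within a cluster the genes are ordered by paralog group, from 1 to 13, and genes of low paralog number are expressed further towards the head than genes of high number. In the embryonic brain they are known from the hindbrain, where they give segments and their neurons an identity along the head-to-tail axis, while the forebrain and midbrain lack them. Hox genes of high paralog number act in the trunk, the tail and the limbs.

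The 2 control arrays came from embryos with Sox4 flox/flox and Sox11 flox/flox alleles and no Cre. The 2 double-knockout arrays came from embryos with the same floxed alleles and Brn4::Cre, a Cre recombinase driver that carries the name of the gene Pou3f4 (Brn4), so that recombination is limited to cells in which the driver was active. All embryos were of mixed 129SvJ/C57Bl/6J background, and the series text calls the controls wild type although the labels give them the floxed alleles. The labels name whole brain, while the series title speaks of the spinal cord, and they do not say at which level the brain was cut from the cord, how many embryos an array held, or their sex. The arrays are labelled as biological replicates. With so few arrays, precision is low, and p-values measure only the spread between these arrays.

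Median signals were 262.0 to 286.7 on the 4 arrays, and log2 signals correlated with r = 0.974 within each group and 0.962 to 0.966 between groups, across probe sets, which are not independent replicates. Sox11 fell at all 6 of its probe sets, while Sox4 fell at 4 of 6 tested probe sets and rose at 1, and Pou3f4, at the brighter of its probe sets, read 1744 and 1362 in controls and 1590 and 1302 in knockouts (log2 change -0.10, adjusted p = 0.682). Which Sox4 and Sox11 probe sets lie in the deleted part is not known here, and those that lie outside it say nothing of the labels. Markers of forebrain and midbrain position cleared the signal filter for 20 of 22 genes on the array, as did those of hindbrain and spinal cord neurons for 23 of 35. Lhx2 and Barhl2 are in both lists. Phox2a, Tph2, Mnx1, Chat, Slc5a7 and Slc18a3 were among the hindbrain and spinal cord genes below the filter. These counts do not show how much hindbrain or cord the samples held.

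Of the 48 Hox probe sets, 15 cleared the filter on dim signals and were tested, all of paralog groups 2 to 6, and 6 of these fell, at Hoxa3, Hoxb3, Hoxc4, Hoxa5, Hoxc5 and Hoxb6, by 1.44-fold to 2.25-fold. None rose. Across the array, 11.6% of the 27022 probe sets tested fell and 11.7% rose (limma, adjusted p under 0.05). The log2 change lay below 0 at all 15 tested Hox probe sets, with a median of -0.53, against a median of -0.01 and 51.0% below 0 over all probe sets tested. In 14 of the 15, both knockout arrays lay below both control arrays, which 31.6% of all tested probe sets showed, while 31.3% had both knockouts above both controls. The groups overlapped only at a dimmer Hoxa5 probe set. In RNA of whole brain, fewer cells of a type and less RNA per cell cannot be told apart.

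The filter used the mean of all 4 arrays, and 3 of the 15, those of Hoxb4, Hoxc5 and Hoxc6, cleared it only through their controls, so that a difference there is in part set by the filter. The 12 probe sets with both group means above the cutoff held 5 of the 6 that fell, and their median log2 change was -0.52. With 1 array left out, 1 group held a single array. The number of Hox probe sets that fell then moved, and fewer of all probe sets fell as well. The median log2 change of the tested Hox probe sets was -0.67 without control 1 and -0.51 without control 2. It was -0.60 without knockout 1 and -0.53 without knockout 2. Across these 4 fits the log2 change was -1.26 to -1.08 at Hoxa3 1427433_s_at. At Hoxb3 1456229_at it was -1.24 to -1.01, and at Hoxc4 -1.20 to -0.83. Read as genes, each at its brightest probe set, 12 of the 33 were tested, 5 fell and 0 rose, against 11.0% and 16.3% of the 12489 genes tested. Hoxb4, Hoxc5 and Hoxc6 are among the 12, and Hoxc5 is among the 5, so the count of genes is also in part set by the filter. The count of genes that fell was lower without control 2, knockout 1 or knockout 2.

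**Figure D1:**
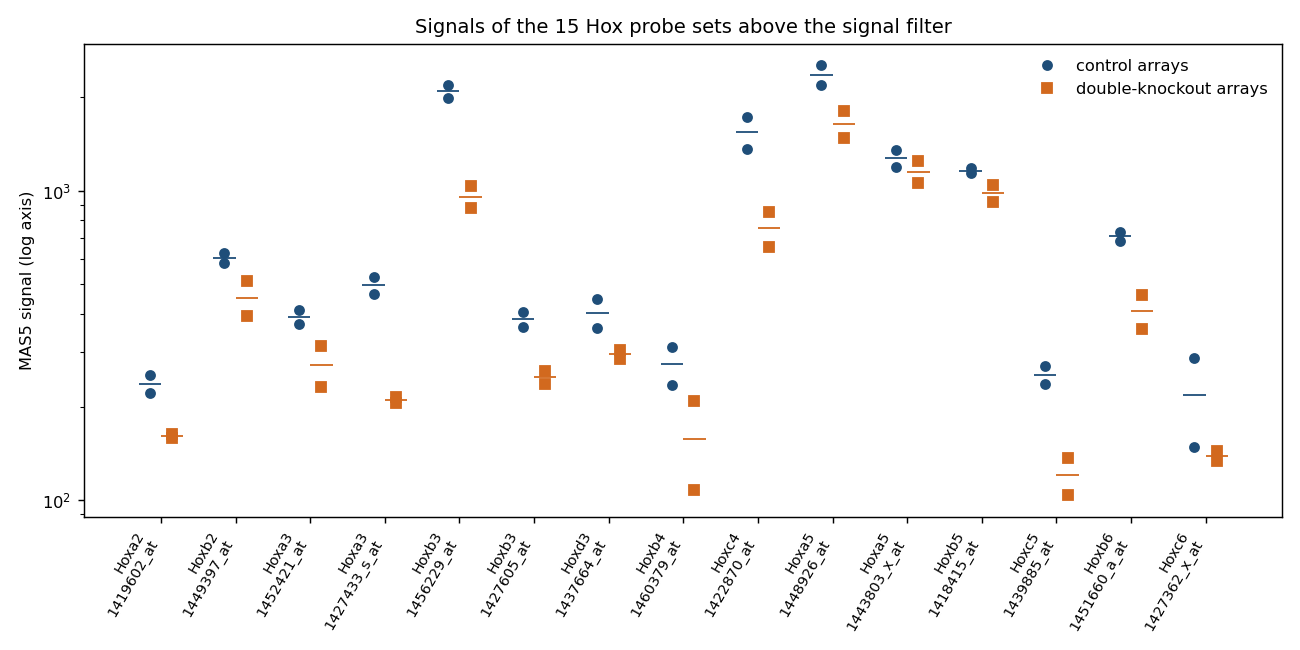
MAS5 signal (vertical, log axis) of the 15 Hox probe sets that cleared the filter, ordered by paralog group, with circles for the 2 control arrays, squares for the 2 double-knockout arrays and bars for group means. Both squares lie below both circles in 14 of the 15, and overlap is seen at 1 Hoxa5 probe set.

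Paralog group 2 holds the Hox genes expressed furthest towards the head. Hoxb2, which acts in neurons of the anterior hindbrain, gave control signals of 581 and 627 and knockout signals of 392 and 510, a log2 change of -0.42 ± 0.18 (SE; 95% interval -0.81 to -0.03, adjusted p = 0.115). Hoxa2, which patterns anterior rhombomeres and the neural crest of the jaw and ear region, read 221 and 253 against 158.5 and 163 (log2 change -0.51 ± 0.25, interval -1.07 to 0.04, adjusted p = 0.170). The groups did not overlap at either gene, and neither passed the test. Paralog group 1 was represented by Hoxb1 and Hoxd1, both below the filter. Hoxb1, which marks a single rhombomere early in hindbrain development, read 59.6 and 42.0 in controls and 69.8 and 75.0 in knockouts, so both knockout arrays lay above the controls at a dim signal, and the groups overlapped at Hoxd1.

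Paralog group 3 was the best covered, with 7 probe sets of 3 genes, and held the lowest adjusted p of the members. Hoxb3, a gene of the hindbrain behind its anterior segments, had control signals of 1994 and 2201 and knockout signals of 878 and 1034 at 1456229_at. The knockout signals were about level with each other and well below both controls. The means were 2097 ± 146 and 956 ± 111 (SD, n = 2 each), and the log2 change was -1.12 ± 0.13 (SE; limma adjusted p = 0.000287), which is 2.18-fold lower. The dimmer Hoxb3 probe set, 1427605_at, read 361.5 and 404 against 261 and 236 (log2 change -0.59 ± 0.20, adjusted p = 0.0585) and passed only in limma without the variance trend (adjusted p = 0.0452) and at an adjusted p under 0.1.

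Hoxa3, which is needed for organs of the pharyngeal arches and is expressed in the caudal hindbrain, had 4 probe sets, of which 2 were tested. At 1427433_s_at the control arrays read 462 and 526.5 and the knockout arrays 214 and 206, a log2 change of -1.17 ± 0.20 (adjusted p = 0.00235). At 1452421_at, built from the same accession in the annotation, the values were 411 and 370 against 314 and 232 (log2 change -0.50 ± 0.21, adjusted p = 0.119). The knockout arrays were below the controls at both, by 2.25-fold and 1.42-fold, and the suffix s marks a probe set whose probes can detect related transcripts. This pair had the same mean log2 signal to 2 decimals (8.41), and the one that did not pass was the brighter by a small margin and stood for Hoxa3 in the count of genes. Averaged over its tested probe sets, Hoxa3 fell, which made the count of genes 6. The other Hoxa3 probe sets were dim and had changes of -0.01 and 0.03. Hoxd3 read 359 and 445 in controls and 285 and 305 in knockouts (log2 change -0.42 ± 0.20, interval -0.86 to 0.02, adjusted p = 0.156), and was the single member of the Hoxd cluster above the filter.

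Paralog group 4 genes are expressed from the caudal hindbrain into the spinal cord. Hoxc4 had control signals of 1364 and 1724 and knockout signals of 658 and 855. Both knockouts were below both controls, with means of 1544 ± 255 and 756 ± 139 (SD, n = 2 each) and a log2 change of -1.02 ± 0.16 (SE; adjusted p = 0.00191). Hoxb4 at 1460379_at gave 235 and 313 against 208 and 107.5, a log2 change of -0.79 ± 0.32 with an interval of -1.50 to -0.08 (adjusted p = 0.101). Its knockout arrays differed from each other by more than the nearer of them differed from the lower control, and the call was made only with arrays centred on their medians (log2 change -0.75, adjusted p = 0.0464). Hoxa4 was below the filter, at 183 and 263 against 149 and 66.2 at its brightest probe set.

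In paralog group 5, Hoxa5, which acts in the brainstem and is needed for the development of the airways, read 2195 and 2538 in controls and 1475 and 1810 in knockouts at 1448926_at. The groups did not overlap, and the log2 change was -0.53 ± 0.13 (SE; adjusted p = 0.0160), the smallest among the probe sets that fell. A second Hoxa5 probe set, 1443803_x_at, read 1357 and 1191 against 1054 and 1246 (log2 change -0.15 ± 0.14, interval -0.45 to 0.15, adjusted p = 0.472), and its groups overlapped. Its suffix x marks probes that can cross-hybridise. The Hoxa5 call was lost without control 2 (log2 change -0.42, adjusted p = 0.0622), without knockout 1 (-0.38, 0.119) and without the variance trend (adjusted p = 0.0868).

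Hoxc5 had control signals of 236 and 270 and knockout signals of 103.5 and 136 at 1439885_at, which was 1.99-fold lower (log2 change -1.0 ± 0.28, adjusted p = 0.0255). The call was lost without knockout 1 (log2 change -0.82), without knockout 2 (-1.17) and with no filter (adjusted p = 0.0852). Without control 2 this probe set did not clear the filter and was not tested. Its 2 dim probe sets had changes of -1.51 and -0.73. Hoxb5 read 1180 and 1140 against 1041 and 919 (log2 change -0.24 ± 0.13, interval -0.53 to 0.04, adjusted p = 0.206), with no overlap and no call.

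Paralog group 6 was the last to clear the filter. Hoxb6, a gene of the spinal cord and trunk that reaches into the caudal hindbrain, read 735 and 687 in controls and 356 and 459 in knockouts, with means of 711 ± 33.9 and 407 ± 73.1 (SD, n = 2 each). That is a log2 change of -0.79 ± 0.17 (SE; adjusted p = 0.00940), which did not pass without knockout 1 (-0.61, adjusted p = 0.0785). Hoxc6 had 3 probe sets, and the tested one read 148 and 287 against 144 and 133, where control 1 lay just above the knockouts (log2 change -0.53 ± 0.33, interval -1.26 to 0.20, adjusted p = 0.279). It passed without control 1 (-0.97, adjusted p = 0.0474). The dim Hoxc6 probe sets had changes of -0.91 and -1.39, with both knockouts below both controls.

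**Figure D2:**
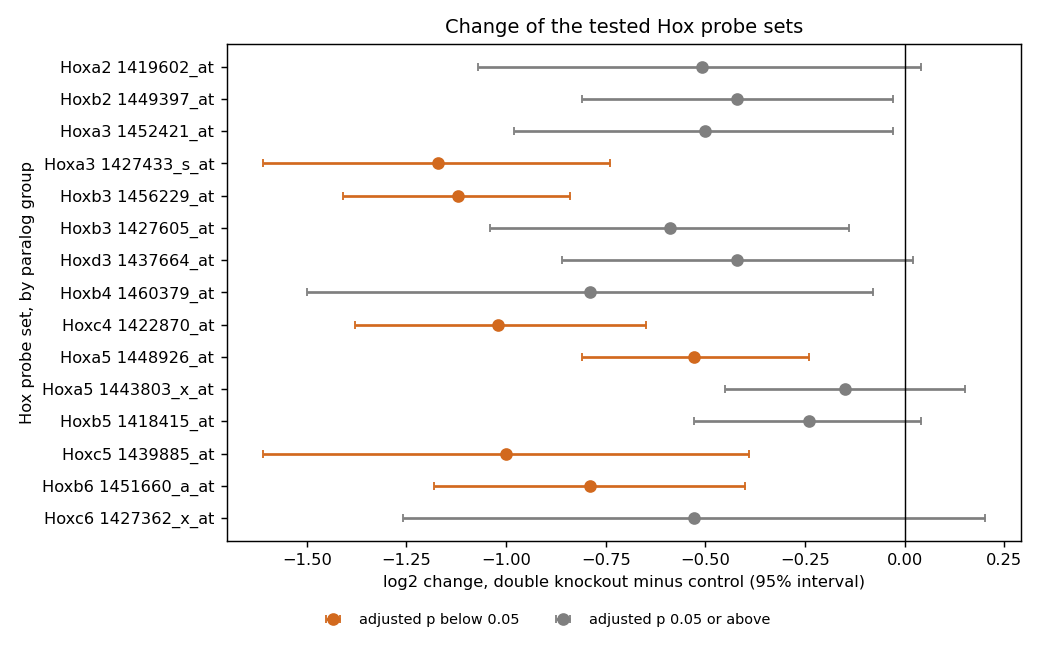
Log2 change (double knockout minus control, horizontal) of the 15 tested Hox probe sets with 95% intervals from limma, ordered by paralog group from top to bottom, in orange where the adjusted p was below 0.05. All 15 points lie below 0, from -1.17 at Hoxa3 to -0.15 at the second Hoxa5 probe set.

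By cluster, 2 of 5 tested Hoxa probe sets fell, 2 of 6 of Hoxb, 2 of 3 of Hoxc and 0 of 1 of Hoxd, against the 11.6% of all probe sets. Without Hoxb4, Hoxc5 and Hoxc6, which cleared the filter only through their controls, 2 of 5 of Hoxb and 1 of 1 of Hoxc fell, so Hoxc is left with Hoxc4 alone. Median log2 changes of the tested probe sets were -0.51 in Hoxa, -0.69 in Hoxb (-0.59 without Hoxb4) and -1.0 in Hoxc, where it is the value of Hoxc5, and the ranges of the clusters overlapped. Along the paralog groups the medians were -0.47, -0.59, -0.90, -0.38 and -0.66 in groups 2, 3, 4, 5 and 6. These medians rest on 2 to 5 probe sets each and show no steady order with paralog number. Those of groups 4, 5 and 6 include Hoxb4, Hoxc5 and Hoxc6. Without these, group 4 is left with Hoxc4 alone (-1.02) and group 6 with Hoxb6 alone (-0.79). Group 5 then keeps Hoxa5 (-0.53 and -0.15) and Hoxb5 (-0.24). Differences between clusters or groups were not tested.

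**Figure D3:**
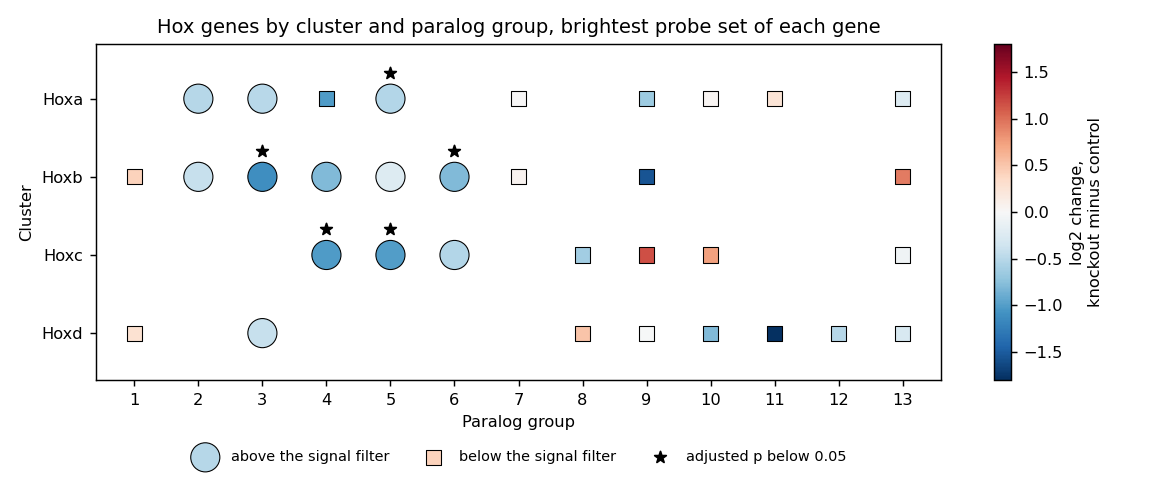
The 33 Hox genes placed by cluster (rows) and paralog group (columns), each at its brightest probe set and coloured by the log2 change, blue for lower in the double knockout. Large circles cleared the signal filter, small squares did not, and stars mark the 5 genes that fell; all circles lie in paralog groups 2 to 6.

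Genes of paralog groups 7 to 13 gave dim signals in every group of arrays. A dim signal is not called absent, since no detection calls were used, and signals of different probe sets do not rank genes. The 33 Hox probe sets below the filter had single-array signals of 2.20 to 263, and their log2 values varied within groups with a median SD of 0.50, against 0.18 for the tested ones. Of these 33, both knockout arrays were below both controls at 10 and above at 5, and the groups overlapped at 18. Among all 18015 probe sets below the filter the shares were 20.4% lower and 16.7% higher. Changes lay below 0 at 20 of the 33, against 52.5% of all dim probe sets.

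The brightest probe set of each posterior group is given by array. Hoxb7 read 154 and 73.1 in controls and 113 and 112 in knockouts, Hoxd8 59.3 and 109 against 112 and 133.5, and Hoxa9 204.5 and 110 against 28.2 and 238. Of these, only Hoxd8 had separated groups, with knockouts above controls. Hoxc10, a gene of the lumbar cord, read 16.6 and 64.6 against 77.5 and 62.4, and Hoxa11, of the limb and kidney, 99.6 and 42.5 against 66.4 and 98.5. Hoxd12 read 28.3 and 5.30 against 5.90 and 5.0, and Hoxa13, of the limb tips and hindgut, 50.8 and 26.5 against 64.3 and 9.50. All of these 4 pairs of groups overlapped. When all probe sets were tested with no filter, 4.77% fell and 4.82% rose, and among the dim Hox probe sets that of Hoxd11 did, at 69.2 and 39.9 in controls and 2.30 and 5.80 in knockouts (log2 change -1.79, adjusted p = 0.0462). Hoxd11 was named after its values were seen.

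The start regions of the 4 tested Hox genes below show the DNA from which counts of short motifs were taken. They are the 250 bases before the annotated start, from RefSeq on GRCm38.p6, written 5′ to 3′ on the gene's strand, for Hoxa3 and Hoxa5, which fell, and for Hoxa2 and Hoxd3, which were lower in both knockouts and did not pass. Capitals mark matches on either strand to the Hox-Pbx motif TGATNNAT or the Cdx motif TTTATG, and a window with no capitals held no match to any motif searched. The Hoxa3 window lies before the outermost annotated start of that gene, which is beyond the start of Hoxa5 on the chromosome. No other start of Hoxa3 was at hand, so its window says nothing of starts nearer to the rest of the gene.
Hoxa2, chr6:52164832-52165081, minus strand: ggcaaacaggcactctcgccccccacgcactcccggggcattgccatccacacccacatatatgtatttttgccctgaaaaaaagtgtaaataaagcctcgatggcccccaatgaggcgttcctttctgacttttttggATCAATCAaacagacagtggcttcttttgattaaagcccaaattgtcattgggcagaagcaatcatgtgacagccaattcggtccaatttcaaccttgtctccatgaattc
Hoxa3, chr6:52213068-52213317, minus strand: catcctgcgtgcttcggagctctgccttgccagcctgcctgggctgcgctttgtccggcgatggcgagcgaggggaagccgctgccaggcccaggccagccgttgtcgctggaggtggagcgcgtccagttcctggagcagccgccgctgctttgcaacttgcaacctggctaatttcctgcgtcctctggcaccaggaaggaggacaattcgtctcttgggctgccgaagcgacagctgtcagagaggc
Hoxa5, chr6:52204588-52204837, minus strand: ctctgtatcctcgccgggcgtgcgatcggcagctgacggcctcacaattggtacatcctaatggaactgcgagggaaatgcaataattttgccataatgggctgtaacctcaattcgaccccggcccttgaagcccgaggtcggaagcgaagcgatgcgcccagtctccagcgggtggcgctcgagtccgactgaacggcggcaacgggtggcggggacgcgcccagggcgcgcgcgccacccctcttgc
Hoxd3, chr2:74711743-74711992, plus strand: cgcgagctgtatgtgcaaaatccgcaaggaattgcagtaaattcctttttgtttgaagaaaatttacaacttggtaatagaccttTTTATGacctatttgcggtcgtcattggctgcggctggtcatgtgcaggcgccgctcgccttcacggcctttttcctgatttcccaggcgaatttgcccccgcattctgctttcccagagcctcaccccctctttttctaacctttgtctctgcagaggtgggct

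Start regions were at hand for 19 of the 33 genes, in 21 windows, with no entry for Hoxb3, Hoxc5 or Hoxb6. The Sox motifs AACAAT and AACAAAG, searched on both strands, were in 0 of the 21 windows, against 9.42% and 5.03% of all 32851 windows of the same length. TGATNNAT was in 3 windows (Hoxa2, Hoxb1 and Hoxd11), against 7.68% of all, the homeodomain core TAATTA in 2 (both of Hoxd11), against 4.84%, and TTTATG in 3 (Hoxa7, Hoxd3 and Hoxd11), against 10.8%. In Hoxa2 the match lies 111 to 104 bases before the start. The windows of Hox genes were richer in G and C than others, with a median of 59.2% against 52.4%. These motifs hold mostly A and T, and a window without a match says only that these letters are not in it.

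Hox proteins bind DNA together with cofactors of the Pbx and Meis families. Of 8 cofactor genes tested, 3 fell, 0 rose and 5 did not pass, with a median log2 change of -0.17, against 11.0% of genes that fell and a median of 0.06 over all genes. Meis1 read 1910 and 1855 in controls and 1078 and 946 in knockouts (log2 change -0.89 ± 0.12, adjusted p = 0.000773). Pbx3 read 13323 and 14058 against 7747 and 8065 (log2 change -0.79 ± 0.07, adjusted p = 9.55e-05). Meis3, a cofactor of the hindbrain, read 597.5 and 552 against 406 and 378 (log2 change -0.53 ± 0.17, adjusted p = 0.0408). All 3 were lower in both knockouts than in both controls, and with any 1 array left out 2 of the list fell. The changes of Meis2 (-0.20), Pknox1 (-0.14), Pbx4 (-0.06), Pknox2 (-0.01) and Pbx2 (0.15) did not pass.

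Among genes known to act on Hox expression, 3 of 7 tested fell and 0 rose, with a median log2 change of -0.08, against 11.0% and 16.3% of all genes. They were Gbx1 (-1.24 ± 0.31, adjusted p = 0.0166) and Gbx2 (-1.12 ± 0.17, adjusted p = 0.00139), homeobox genes of which Gbx2 sets the border of midbrain and hindbrain, and Zfp503 (-0.80 ± 0.10, adjusted p = 0.000602), a zinc finger protein of the hindbrain and striatum. Gbx1 read 378 and 396 in controls and 105 and 224 in knockouts, near the cutoff signal of 154.6, and did not pass with no filter (adjusted p = 0.0721). The count that fell was 2 with no filter or with no variance trend. The chromatin regulators Kmt2a (-0.06) and Kmt2b (-0.05), which keep Hox genes active, did not pass. Egr2, which switches on Hox genes in rhombomeres, was below the filter at 125.5 and 123 against 66.3 and 92.4.

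Retinoic acid sets the head-to-tail borders of Hox expression. Of 14 genes of its pathway tested, 3 fell, 1 rose and 10 did not pass, with a median of -0.17. Over all genes 11.0% fell and 16.3% rose, with a median of 0.06. Those that fell were Cyp26b1 (-0.59 ± 0.13, adjusted p = 0.00990), which degrades retinoic acid in the hindbrain, and the binding proteins Crabp2 (-0.53, adjusted p = 0.0199) and Crabp1 (-0.37, adjusted p = 0.0441), and Dhrs3, which limits its synthesis, rose (0.55, adjusted p = 0.0406). The count that fell was 1 when either control was left out, 2 without knockout 1 and 0 without knockout 2 or with no variance trend, and Dhrs3 passed in neither the fit without control 1 nor that without knockout 1. Aldh1a2, the main enzyme of its synthesis in the trunk, read 810 and 851 against 897 and 884 (log2 change 0.10, adjusted p = 0.631). The receptor gene Rarb, which retinoic acid induces, read 751 and 658 against 477 and 617 (-0.36, adjusted p = 0.155).

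Polycomb complexes keep Hox genes silent where they are not used. Of 27 genes tested in a Polycomb list, 8 fell, 2 rose and 17 did not pass, with a median log2 change of -0.12. Over all genes 11.0% fell and 16.3% rose, with a median of 0.06. The list also counts the histone demethylases Kdm6a (-0.26) and Kdm6b (-0.45), which oppose these complexes and are not part of them. Kdm6b is among the 8 that fell (adjusted p = 0.00818), and Kdm6a did not pass. Ezh2, the methyltransferase of the second complex, read 7990 and 7710 in controls and 4502 and 5417 in knockouts (-0.67 ± 0.10, adjusted p = 0.00111), and Bmi1, a subunit of the first complex, fell by -0.72 ± 0.09 (adjusted p = 0.000363). Phc1 (-0.79) and Cbx2 (-0.62), of the first complex, also fell. Suz12 (0.03) and Eed (-0.03), partners of Ezh2, did not pass, and Rbbp7 (0.34) and Cbx6 (0.56) rose. The number that fell was 6 to 8 with single arrays left out and 5 with no variance trend, and the number that rose was 1 without control 1 and 1 without knockout 2.

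**Figure D4:**
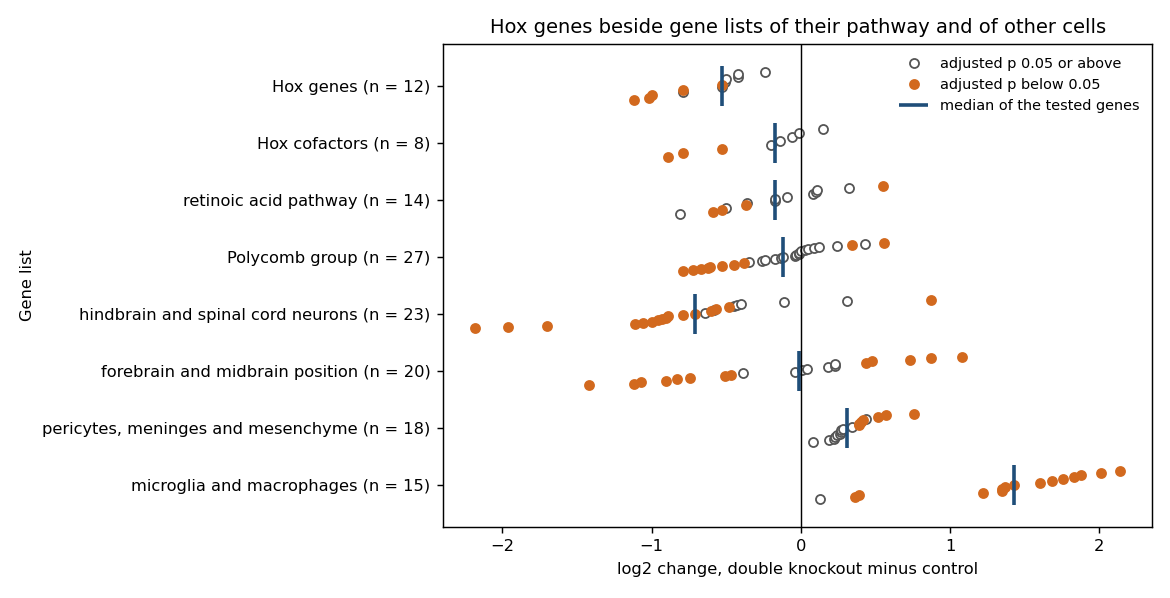
Log2 change (double knockout minus control) of each tested gene of the Hox genes and of 7 lists, filled where the adjusted p was below 0.05, with a bar at the median of the list. The Hox genes have a median of -0.53, hindbrain and spinal cord neurons -0.71, forebrain and midbrain position -0.01, and microglia and macrophages 1.43. The list of forebrain and midbrain position holds 8 genes that fell and 5 that rose.

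Of 23 tested genes of hindbrain and spinal cord neurons, 15 fell, 1 rose and 7 did not pass, against 11.0% of all genes that fell and 16.3% that rose. Their median log2 change was -0.71, and the summed signal of the 35 genes on the array was 34307 to 35608 in controls and 24776 to 28767 in knockouts. Gata3 (-2.18), Tfap2a (-1.96) and Tfap2b (-1.70), transcription factors of brainstem and spinal interneurons, and Atoh1 (-1.11), a factor of the rhombic lip, fell furthest. Atoh1 read 355 and 224 in controls and 121 and 124 in knockouts, and cleared the filter (signal 154.6) only through its controls. Its difference is thus in part set by the filter, and it did not pass with no filter (adjusted p = 0.0748). Lhx2, which the forebrain also expresses, rose (0.87), from 6932 and 5160 in controls to 12446 and 9573 in knockouts. Its signal is a large part of the summed signal, which therefore does not stand for hindbrain and cord cells alone. Other bright members, such as Isl1 and Lhx9, which fell, are also expressed in other parts of the brain. The count of 15 is thus not a measure of hindbrain and cord cells alone. Lhx2 and Barhl2 (-0.90), which fell, are also counted in the list of forebrain and midbrain position. Slc6a5 (-0.11), the glycine transporter of inhibitory neurons, and Olig3 (0.31), a factor of dorsal progenitors, did not pass. The count that fell was 9 without knockout 1, with no filter or with no variance trend, and no gene of the list was at 0. Markers of position in the forebrain and midbrain moved both ways. Of 20 tested, 8 fell, with Pax7 (-1.42) of the dorsal midbrain furthest down, and 5 rose, with Eomes (1.08), a cortical factor, furthest up, against 11.0% and 16.3% of all genes, and their median was -0.01. The others that fell were Gbx2 (-1.12), Foxa2 (-1.07), Barhl2 (-0.90), Tcf7l2 (-0.83), En2 (-0.74), Otx2 (-0.51) and Tbr1 (-0.47). The others that rose were Lhx2 (0.87), Emx1 (0.73), Fezf2 (0.48) and Pax6 (0.44). The median of this list thus pools changes in opposite directions, and falls were not limited to the hindbrain and spinal cord list. With no variance trend 2 genes of the forebrain and midbrain list rose. Summed signals were 57588 to 63272 in controls and 60241 to 66720 in knockouts. Whether a smaller share of hindbrain or cord in the knockout samples had a part in the Hox values was not tested.

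Other homeobox genes related to the Hox genes were mostly dim, and of 4 tested among 15, Gbx1, Gbx2 and En2 (-0.74, adjusted p = 0.00169), a gene of the midbrain and anterior hindbrain, fell, against 11.0% of all genes. The count was 2 with no filter or with no variance trend. Evx1 and Evx2, which lie at the ends of the Hoxa and Hoxd clusters, were below the filter, with changes of -1.27 and 0.50. Genes that flank the clusters were read as well, the nearest 5 on each side that have a probe set of 1 gene symbol, by RefSeq order (GRCm38.p6). Nearer genes with no such probe set were passed over. Of these 40 genes 34 were tested, 3 fell, 7 rose and 24 did not pass, with a median log2 change of 0.08. These shares and this median lie near those of all genes (11.0% fell, 16.3% rose, median 0.06). Those that fell were Nfe2l3 beside Hoxa (-1.11), Chn1 beside Hoxd (-0.70) and Cbx1 beside Hoxb (-0.29), and those that rose were Snx10, Hibadh and Jazf1 beside Hoxa (0.50, 0.50 and 0.48), Atp5g1 beside Hoxb (0.33), Atp5g2 beside Hoxc (0.56), and Nfe2l2 and Ttc30b beside Hoxd (0.81 and 0.40). The nearest tested gene beyond Evx1 is Hibadh, and those on the other sides, Skap2 (0.12), Ttll6 (-0.63), Skap1 (0.14), Calcoco1 (0.12), Smug1 (0.02), Lnpk (-0.24) and Mtx2 (-0.26), did not pass.

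Markers of other cells are read against the 11.0% of all genes that fell and the 16.3% that rose. Of 15 genes of microglia and macrophages tested, 14 rose and 0 fell, with a median of 1.43 and summed signals of 11124 to 11774 in controls and 31037 to 32776 in knockouts. Among pericyte, meningeal and mesenchymal genes, cells that can express Hox genes in the neck and trunk, 7 of 18 rose and 0 fell (median 0.31, summed signals of 40918 to 43369 against 54570 to 56547), with 4 that rose without knockout 2 and 2 with no variance trend. For endothelium 5 of 11 rose and 0 fell (median 0.36, 8859 to 9610 against 11726 to 12261), with 0 without control 1 or knockout 1, and 1 without knockout 2 or with no variance trend. Neurons had 6 of 10 that fell and 1 that rose (median -0.35, 151916 to 158208 against 120069 to 124640), and 3 fell with no variance trend. Blood cell genes had 0 of 4 in either direction, neural crest and peripheral neurons 2 of 6 that fell, Pou4f1 and Isl1, which the hindbrain and spinal cord list also holds, and skeletal muscle and cartilage 1 of 3 that rose, Sox9, which neural progenitors also express (0 without knockout 1 or with no variance trend, 2 without knockout 2). No marker of these lists was at 0 on any array, and the part of these cells in the Hox result was not tested.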

How the data were processed

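The authors deposited 1 intensity value per probe set and array on a linear scale, made with MAS5 5.0 per the submitters' processing notes, from 100 ng of total RNA on arrays of 1 colour per the labels' protocols. Trimming 2% from both ends left a mean of 1000 on all arrays, so a shift of most transcripts would be removed. No genome build was needed for the signals. Of 45101 probe sets, 64 array controls were left out; 34945 had 1 gene symbol, 932 several and 9160 none, and only the first were named. All 33 Hox symbols matched RefSeq.

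Signals were taken as log2(signal + 16), which understates changes of dim genes. Probe sets whose mean lay above the 40th percentile (log2 7.41, signal 154.6) were compared between the genotypes with limma 3.58.1 (R 4.3.3; variance prior with a trend), and p-values were adjusted by Benjamini-Hochberg over all 27022 (2 residual and 8.33 prior degrees of freedom). Every adjusted p is from limma, and rose, fell and passed mean an adjusted p under 0.05. Genes were read at their brightest probe set. The steps were tested on simulated data. The Hox members, 14 gene lists and alternatives were chosen with earlier results of these data known. All Hox probe sets that passed and the brightest of each cluster and paralog group are given by array, and of each list up to 4 that passed. List members named beside them, that did not pass or complete a count, were chosen after their values were seen.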

Additional observations from a re-analysis of the deposited data

How the results depend on the processing

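The direction of change of all 15 tested Hox probe sets was kept under every alternative in which they were tested, and no Hox probe set rose. With 6 Hox probe sets that fell, the count was 6 or 7 under quantile normalization, median centring, pseudocounts of 1 and 64, a variance prior that was robust or had no trend, and an adjusted p under 0.1, though not always at the same genes. It was 6 of 48 with no filter, where Hoxd11 was called and Hoxc5 was not, and 4 of 7 with a filter at the 60th percentile. With 1 array left out it ranged from 3 to 7 for probe sets and from 2 to 6 for genes, and the fewest were without knockout 1. For single Hox probe sets, the calls of Hoxa5, Hoxb6 and Hoxc5 each depended on at least 1 array, as given beside them. With no variance trend the calls over all probe sets dropped to 1643 that fell and 1471 that rose. The share of all tested probe sets that fell, 11.6% with the settings used above, was then 6.08%. That share was 4.77% with no filter, 15.5% with a filter at the 60th percentile and 15.6% at an adjusted p under 0.1. The Hox counts in these settings are thus read against different shares. Quantile normalization and median centring moved the median of all tested probe sets to 0.00 and 0.03. The count of genes beside the clusters that changed, 10, was 5 with no variance trend; that check and those of the gene lists were added after the data were seen. The replicate numbers showed no shared effect: the difference of replicate 1 and 2 in controls and in knockouts correlated with r = 0.003 across probe sets. This cannot show whether arrays were paired by litter or batch. With the replicate number as a block 6 Hox probe sets and 5 genes fell, as without it. No detection calls were used, so signal over background could not be judged for the 33 dim probe sets.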
